A study of Mus musculus with 4 samples.

Results

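Imprinted growth genes are genes that are transcribed from only the maternal or only the paternal chromosome and that promote or restrain growth of the embryo. The 10 genes H19, Igf2, Meg3, Dlk1, Cdkn1c, Grb10, Peg3, Mest, Plagl1 and Ndn were chosen by name, with earlier results of these data known. All 10 were found among the 25923 genes that could be named by position in the deposited table. RNA-seq had been performed on SV40-immortalized mouse embryonic fibroblasts (MEF) of the C57BL/6 strain, made from the trunk of E15.5 embryos from which limbs, head and tail as well as heart, liver and other viscera had been taken away. The 4 libraries were Hmga2+/+ Ctrl, Hmga2+/+ TGFB1, Hmga2-/- Ctrl and Hmga2-/- TGFB1, 1 for each condition, where Ctrl is water and TGFB1 is human recombinant TGFB1 at 10 ng/ml for 24 h, and all cells had been starved in 1% FCS before treatment. Hmga2-/- cells lack HMGA2, a chromatin protein of the high mobility group that binds AT-rich DNA. Cells of both genotypes came from different embryos, so that genotype, embryo and culture cannot be told apart, and RPKM does not separate the maternal from the paternal allele.

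Imprinted genes lie in groups that are controlled by a stretch of DNA methylated on the chromosome of only 1 parent. In the textbook view, paternally expressed genes such as Igf2, Dlk1, Mest, Peg3 and Plagl1 tend to favour growth, whereas maternally expressed genes such as H19, Cdkn1c and Grb10 tend to restrain it. Many of them are highly transcribed in embryonic mesenchyme and are silenced after birth as growth slows. Mesenchymal cells such as fibroblasts answer TGFB1 by building contractile fibers and extracellular matrix.

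With 1 library per condition no difference has a replicate check and no test was made. Values are RPKM, that is, reads per kilobase of transcript and per 1000000 mapped reads, and differences are ratios of RPKM on the log2 scale. A difference of at least 1.5-fold, the size used in the study, was counted as a change. Intervals are 95% intervals that cover counting error of the reads only and not the spread between cultures. They are exact, except that those of the difference between the TGFB1 responses of both genotypes use a normal approximation on the log scale. From the whole reads behind low values, the libraries held between 56140000 and 57300000 mapped reads, so that the 10 genes were read with between 112 reads (Ndn, Hmga2+/+ TGFB1) and 61631 reads (H19, Hmga2+/+ TGFB1). Hmga2 had 14.8 and 40.7 RPKM in Hmga2+/+ Ctrl and TGFB1 and 0 reads in both Hmga2-/- libraries, which for Ctrl is at least 1191-fold lower at a floor of 3 reads. As a check of TGFB1 treatment, Ccn2, Smad7 and Acta2 were each at least 1.5-fold higher with TGFB1 in both genotypes. All 7 fibroblast markers had at least 1 RPKM in each library (summed level 1866 to 2254 RPKM), whereas the 5 skeletal muscle markers summed to at most 0.052 RPKM, with Myod1, Myog, Myf5 and Ckm at 0. Summed levels of the other marker lists, of 4 genes each, lay between 3.89 and 8.14 RPKM for endothelium, 1.29 and 1.66 for macrophages and blood, 0.403 and 1.04 for epithelium, 1.27 and 4.51 for Schwann cells and neurons, 2.09 and 6.21 for cartilage, and 1.15 and 3.07 for adipocytes. The endothelial, epithelial, neural and cartilage sums were higher and the macrophage and adipocyte sums lower with TGFB1 in both genotypes. Genes within a list could differ. Kdr was higher with TGFB1 in both genotypes (1.11 and 4.46 RPKM in Hmga2+/+ Ctrl and TGFB1). Tek was lower in both (2.75 and 0.33 RPKM in Hmga2+/+). In Hmga2+/+, Epcam was higher and Krt18 lower. A single gene gave 2.81 of the neural 3.03 RPKM in Hmga2+/+ TGFB1 and 4.37 of 4.51 RPKM in Hmga2-/- TGFB1. Adipoq and Plin1 were at 0 throughout, and the part of other cell types in the results below was not tested. In such bulk samples, fewer cells that express a gene and less RNA per cell cannot be told apart.

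The level of the 10 genes spanned from 431 RPKM for H19 to 1.17 RPKM for Peg3 in Hmga2+/+ Ctrl. H19, Grb10 and Igf2 held the first 3 places in that order in all 4 libraries. H19, a long noncoding RNA, alone made up 63.9% of the summed RPKM of the 10 genes in Hmga2+/+ Ctrl and 73.9% in Hmga2-/- TGFB1. It was the 18th most abundant of the 10792 genes with a mean of at least 1 RPKM in Hmga2+/+ Ctrl. Plagl1, Cdkn1c and Mest followed at 30.2, 27.4 and 26.2 RPKM in Hmga2+/+ Ctrl, where the counting intervals of Cdkn1c and Mest overlapped. Meg3, Dlk1, Ndn and Peg3 were lower, at 10.4, 4.01, 2.49 and 1.17 RPKM. In the 4 libraries, 5 of the 36 pairs of neighbours in this order had overlapping counting intervals, and Cdkn1c dropped from the fifth place in Hmga2+/+ Ctrl to the seventh in Hmga2+/+ TGFB1. The plot of RPKM by library shows the 10 genes in the order of their level.

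**Figure D1:**
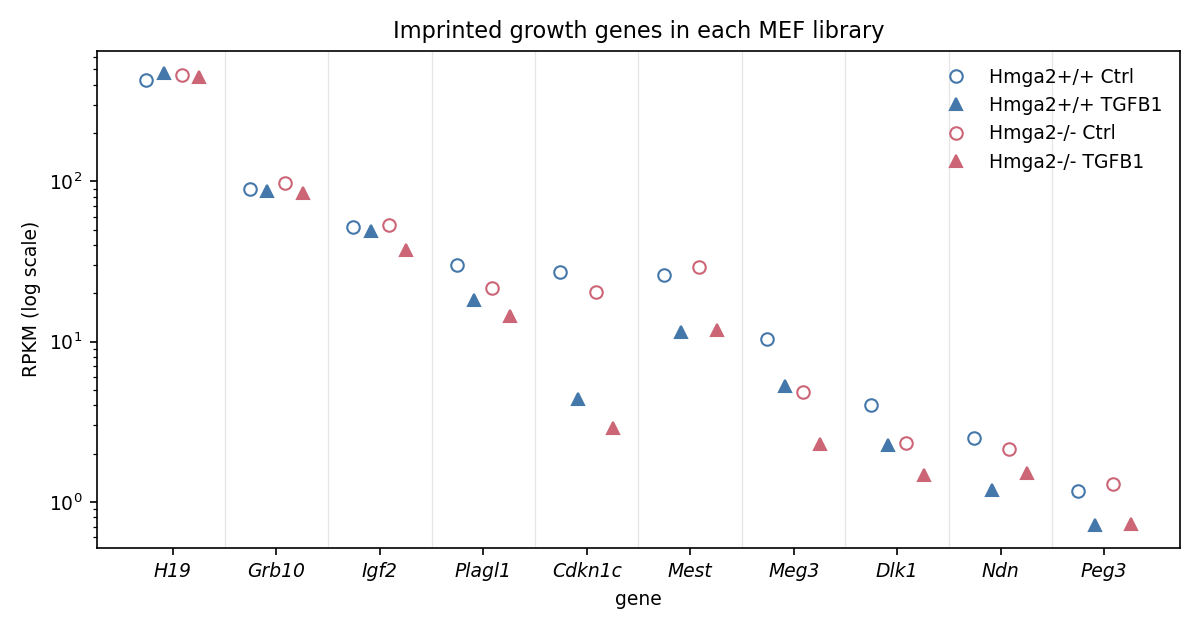
RPKM of the 10 imprinted growth genes (y axis, log scale) in each of the 4 MEF libraries, 1 point per library; blue is Hmga2+/+, red is Hmga2-/-, open circles are Ctrl and filled triangles TGFB1. H19, Grb10 and Igf2 stay at the top with points close together, while the points of Cdkn1c span from 27.4 down to 2.88 RPKM.

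To see what TGFB1 did to these genes in wild-type cells, Hmga2+/+ TGFB1 was compared with Hmga2+/+ Ctrl. Of the 10 genes, 7 were at least 1.5-fold lower and 0 were at least 1.5-fold higher, beside 15.9% lower and 11.6% higher among the 10792 genes with a mean of at least 1 RPKM. The 7 were Cdkn1c, Mest, Ndn, Meg3, Dlk1, Plagl1 and Peg3, and H19, Igf2 and Grb10, the most abundant, were not among them. Peg3, with a mean of 0.976 RPKM, lies below that filter, and of the other 9 members 6 were lower. The median of the 10 log2 ratios was -0.78, against -0.04 over the 10792 genes. Of the 7, 5 were paternally expressed (of 6 such members) and 2 maternally expressed (of 4).

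Cdkn1c encodes p57KIP2, an inhibitor of cyclin-dependent kinases that restrains proliferation, and it showed the widest range of the 10 genes. It had 27.4 RPKM in Hmga2+/+ Ctrl, 4.37 in Hmga2+/+ TGFB1, 20.4 in Hmga2-/- Ctrl and 2.88 in Hmga2-/- TGFB1. Both Ctrl libraries were thus far above both TGFB1 libraries. With TGFB1 the level was 6.27-fold lower than in Ctrl in Hmga2+/+ (log2 ratio -2.65, interval -2.79 to -2.51) and 7.10-fold lower in Hmga2-/- (log2 ratio -2.83, interval -3.00 to -2.66). In Hmga2+/+ only 38 of the 10792 genes had a lower ratio than Cdkn1c, and in Hmga2-/- 36.

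Grb10 (chr11:11930499-12037420, minus strand) encodes an adaptor that binds the insulin and insulin-like growth factor receptors and dampens their signal. Its level was 90.1 RPKM in Hmga2+/+ Ctrl, 86.5 in Hmga2+/+ TGFB1, 98.2 in Hmga2-/- Ctrl and 84.8 in Hmga2-/- TGFB1. The highest library exceeded the lowest by only 1.16-fold. Igf2 encodes the fetal growth factor that is the main ligand of this pathway in the embryo, and it had 51.8, 49.2, 53.1 and 37.1 RPKM in the same order of libraries. Its first 3 values were close together and Hmga2-/- TGFB1 was the lowest. H19, which shares its enhancers with Igf2 and is transcribed from the opposite parental chromosome, had 431, 472, 458 and 445 RPKM, a range of 1.10-fold. The level of H19 exceeded that of Igf2 by 8.31-fold in Hmga2+/+ Ctrl and by 12.0-fold in Hmga2-/- TGFB1.

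Mest (chr6:30733506-30748466, plus strand) encodes an enzyme of the alpha/beta hydrolase family and was named for its transcription in embryonic mesoderm. It had 26.2 RPKM in Hmga2+/+ Ctrl, 11.5 in Hmga2+/+ TGFB1, 29.4 in Hmga2-/- Ctrl and 11.8 in Hmga2-/- TGFB1. The 2 Ctrl libraries were alike, as were the 2 TGFB1 libraries, and the pairs did not overlap. The level was 2.28-fold lower with TGFB1 in Hmga2+/+ (log2 -1.19, interval -1.27 to -1.10) and 2.49-fold lower in Hmga2-/- (log2 -1.32, interval -1.40 to -1.23).

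Plagl1 (chr10:13060504-13128996, plus strand) and Peg3 (chr7:6705960-6730419, minus strand) encode zinc finger transcription factors. Ndn (chr7:62348277-62349927, plus strand) encodes necdin, a MAGE family protein that restrains the cell cycle. Plagl1 had 30.2, 18.2, 21.7 and 14.5 RPKM in Hmga2+/+ Ctrl, Hmga2+/+ TGFB1, Hmga2-/- Ctrl and Hmga2-/- TGFB1, and was 1.65-fold lower with TGFB1 in Hmga2+/+ (log2 -0.73, interval -0.79 to -0.66). Peg3 had 1.17, 0.715, 1.29 and 0.727 RPKM and was 1.63-fold lower (log2 -0.71, interval -0.93 to -0.49), or log2 -0.34 with 1 RPKM added to every value. Each had its lower levels in the TGFB1 libraries. Ndn had 2.49, 1.19, 2.15 and 1.52 RPKM from 231, 112, 201 and 143 reads. Its log2 ratio of TGFB1 to Ctrl in Hmga2+/+ was -1.07, and its few reads gave the widest interval, -1.41 to -0.74.

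Meg3 and Dlk1 are neighbours in the Dlk1-Dio3 domain. Dlk1 encodes a transmembrane relative of the Notch ligands that keeps precursors of fat cells undifferentiated, and Meg3 is a long noncoding RNA of the other parental chromosome. Meg3 had 10.4, 5.25, 4.82 and 2.30 RPKM in Hmga2+/+ Ctrl, Hmga2+/+ TGFB1, Hmga2-/- Ctrl and Hmga2-/- TGFB1, and Dlk1 4.01, 2.26, 2.32 and 1.47 RPKM. For both genes Hmga2+/+ Ctrl was the highest and Hmga2-/- TGFB1 the lowest library, with the other two close together. With TGFB1 in Hmga2+/+, Meg3 was 1.99-fold lower (log2 -0.99, interval -1.14 to -0.84) and Dlk1 1.77-fold lower (log2 -0.82, interval -0.97 to -0.68).

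**Figure D2:**
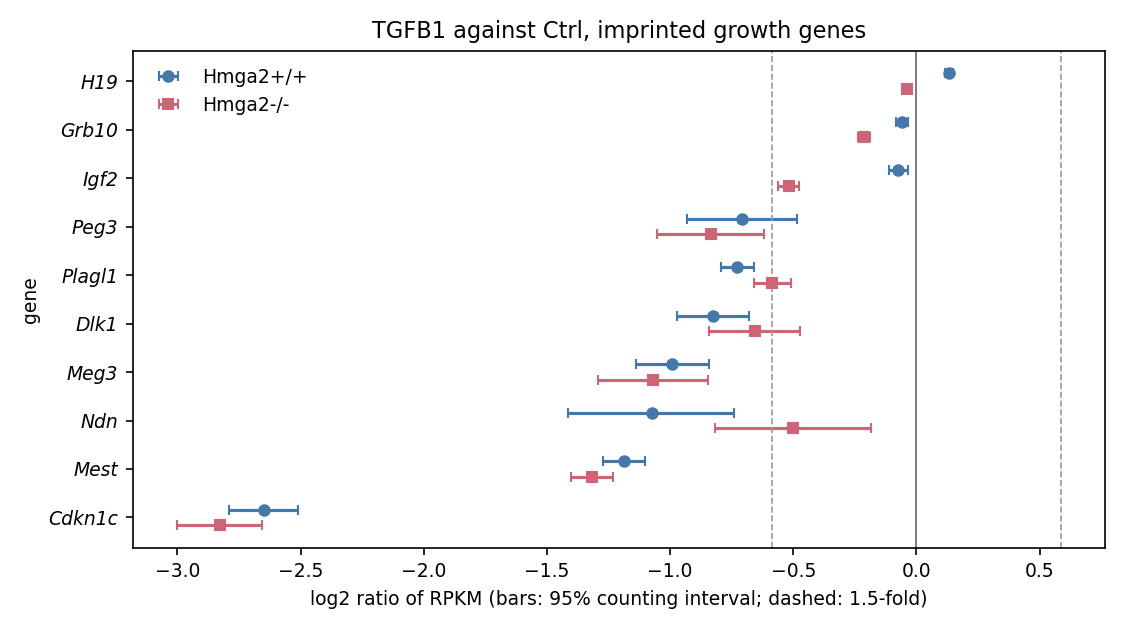
Log2 ratio of RPKM in TGFB1 to Ctrl (x axis) for the 10 genes (y axis) in Hmga2+/+ (blue circles) and Hmga2-/- MEF (red squares); bars are 95% counting intervals from 1 library per condition and dashed lines mark 1.5-fold. Cdkn1c stands far to the left in both genotypes, at -2.65 and -2.83, and H19 and Grb10 lie near 0.

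Whether the same genes answered TGFB1 without HMGA2 was seen from Hmga2-/- TGFB1 against Hmga2-/- Ctrl, libraries that the comparison in Hmga2+/+ did not use. Of the 10 genes, 5 were at least 1.5-fold lower and 0 higher, beside 14.2% lower and 13.4% higher among all 10792 genes. The 5 were Cdkn1c, Mest, Meg3, Peg3 and Dlk1, all of which were also lower in Hmga2+/+. Of the 9 members with a mean of at least 1 RPKM, which leave out Peg3, 4 were lower. Plagl1 missed the 1.5-fold threshold narrowly (log2 -0.58, interval -0.66 to -0.51) and Ndn by more (log2 -0.50, interval -0.82 to -0.18). Plagl1 passed it with the transcript of highest mean RPKM (log2 -0.76), and with 1 RPKM added to every value Dlk1 (log2 -0.43) and Peg3 (log2 -0.41) no longer did. Igf2, which hardly moved in Hmga2+/+ (log2 -0.07, interval -0.11 to -0.03), was 1.43-fold lower in Hmga2-/- (log2 -0.52, interval -0.56 to -0.48), below the size counted as a change. The median log2 ratio of the 10 genes was -0.62, against 0.02 over all genes.

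The difference between the log2 response in Hmga2-/- and that in Hmga2+/+ did not reach 1.5-fold for any of the 10 genes. It was largest for Ndn (0.57, interval 0.12 to 1.02), less negative in Hmga2-/-, and for Igf2 (-0.44, interval -0.50 to -0.39), more negative in Hmga2-/-. For Meg3, Dlk1, Cdkn1c and Peg3 the counting interval of the difference included 0, and that of Meg3 reached from -0.34 to 0.19. In the remaining genes H19 (-0.17), Grb10 (-0.15), Mest (-0.13) and Plagl1 (0.14) the interval left out 0, but a difference of this size cannot be set against the spread between cultures, which is unknown. The scatter of responses in both genotypes places the 10 genes among all others.

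**Figure D3:**
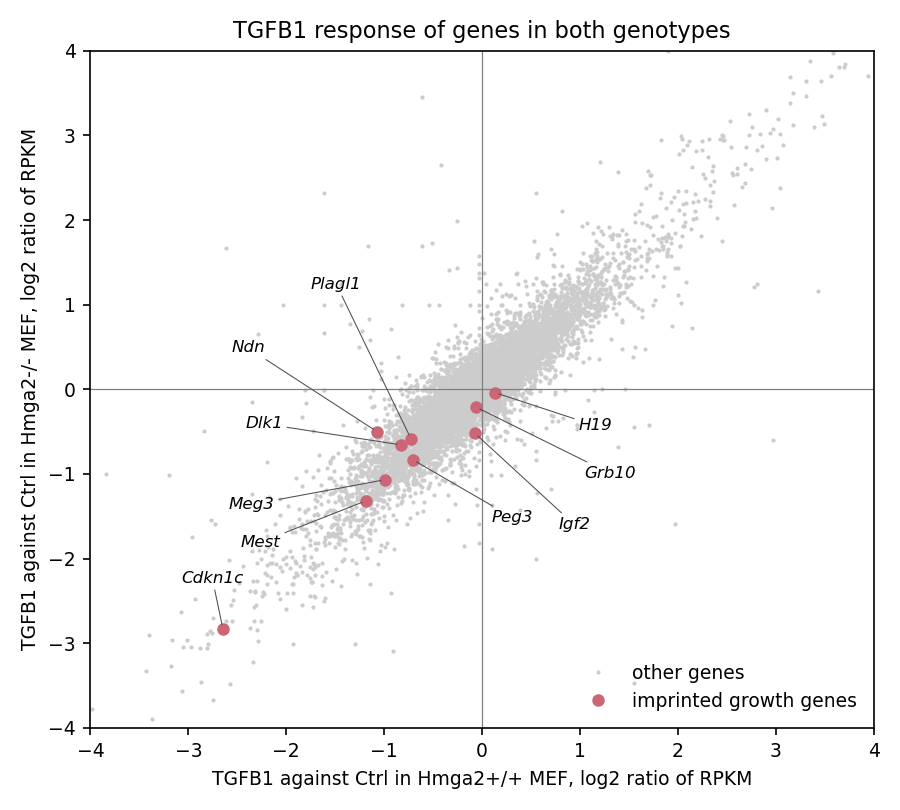
Log2 ratio of RPKM in TGFB1 to Ctrl in Hmga2+/+ (x axis) and Hmga2-/- MEF (y axis), with 1 point per gene; grey, 10783 other genes with a mean of at least 1 RPKM, of which 33 lie beyond the axes; red, the 10 imprinted growth genes. Cdkn1c lies far down at -2.65 and -2.83, and of the 10 genes Ndn and Igf2 lie farthest from equal responses, by 0.57 and -0.44.

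The genotypes were then compared under each treatment, where genotype, embryo and culture cannot be told apart. The comparison in Ctrl shares the Hmga2+/+ Ctrl library with the TGFB1 response of Hmga2+/+, and the comparison under TGFB1 shares a library with each TGFB1 response. In Ctrl, 2 of the 10 genes, Meg3 and Dlk1, were at least 1.5-fold lower in Hmga2-/- and 0 were higher, beside 1.93% lower and 2.23% higher among all 10792 genes. Under TGFB1, 3 of the 10, Meg3, Dlk1 and Cdkn1c, were lower in Hmga2-/- and 0 higher, beside 1.96% lower and 3.01% higher among all genes. With 1 RPKM added to every value, Dlk1 (log2 -0.40) and Cdkn1c (log2 -0.47) no longer passed under TGFB1. The medians of the 10 log2 ratios were -0.09 in Ctrl and -0.21 under TGFB1, against -0.02 and 0.04 over all genes.

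Meg3 was 2.16-fold lower in Hmga2-/- than in Hmga2+/+ in Ctrl (log2 -1.11, interval -1.27 to -0.96) and 2.28-fold lower under TGFB1 (log2 -1.19, interval -1.41 to -0.97). Only 56 of the 10792 genes had a lower ratio in Ctrl, and 47 under TGFB1. Dlk1 was 1.73-fold lower in Ctrl (log2 -0.79, interval -0.94 to -0.64) and 1.54-fold lower under TGFB1 (log2 -0.62, interval -0.81 to -0.43). The ratio of Meg3 to Dlk1 was 2.61 in Hmga2+/+ Ctrl and 1.56 in Hmga2-/- TGFB1. Cdkn1c was 1.34-fold lower in Ctrl (log2 -0.42, interval -0.50 to -0.34) and 1.52-fold lower under TGFB1 (log2 -0.60, interval -0.81 to -0.39). Plagl1, with log2 ratios of -0.48 and -0.33, stood below 0 under both treatments without reaching 1.5-fold. Igf2 differed little in Ctrl (log2 0.03, interval -0.004 to 0.07) and was 1.33-fold lower in Hmga2-/- under TGFB1 (log2 -0.41). H19, Grb10, Mest and Peg3 had log2 ratios between -0.08 and 0.16 under both treatments. Ndn had log2 ratios of -0.21 and 0.36, each with an interval that included 0.

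**Figure D4:**
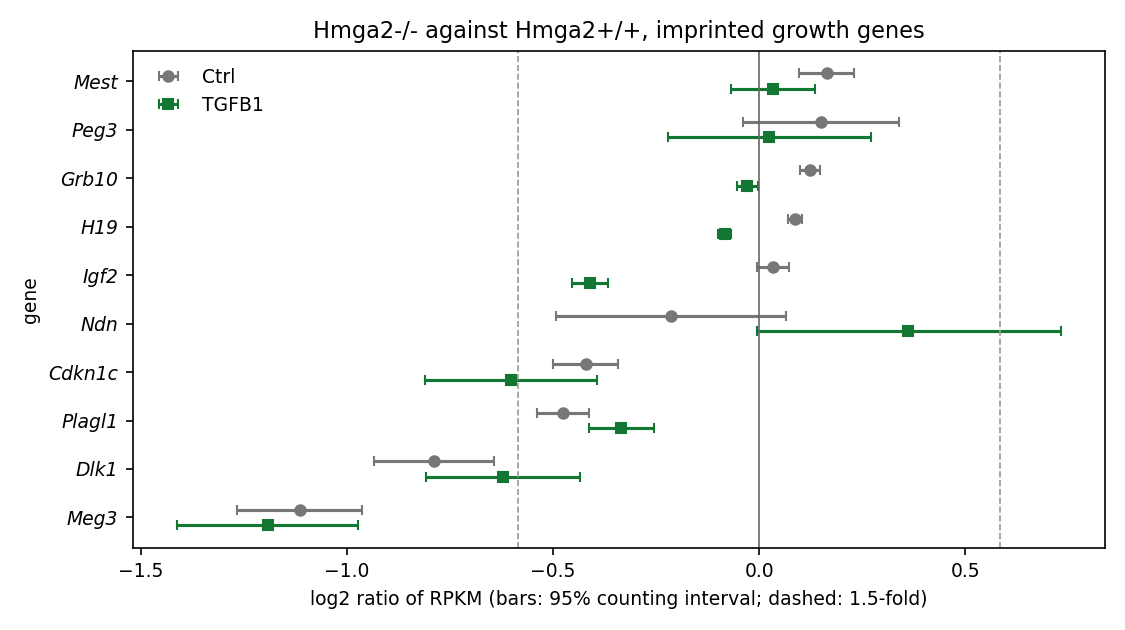
Log2 ratio of RPKM in Hmga2-/- to Hmga2+/+ MEF (x axis) for the 10 genes (y axis) in Ctrl (grey circles) and under TGFB1 (green squares); bars are 95% counting intervals from 1 library per condition and dashed lines mark 1.5-fold. Meg3 and Dlk1 lie left of the dashed line under both treatments, Meg3 at -1.11 and -1.19.

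The table holds 40 transcripts of the 10 genes, which share exons and reads and are no independent measures. With TGFB1, 29 of them were at least 1.5-fold lower in Hmga2+/+ and 27 in Hmga2-/-, and 0 were higher. The shares of all genes given above count 1 transcript per gene, so they are no background for these totals. All 8 transcripts of Meg3 were at least 1.5-fold lower with TGFB1 in both genotypes and lower in Hmga2-/- under both treatments. The 5 transcripts of Dlk1 were all lower in these comparisons and reached 1.5-fold in each, except for 1 of them under TGFB1 between genotypes. All 3 transcripts of Cdkn1c were lower with TGFB1, the shortest, of 590 counted bases, with the ratio farthest from 0 (log2 -3.07 in Hmga2+/+). That transcript had 9.42 RPKM in Hmga2+/+ Ctrl and 4.73 in Hmga2-/- Ctrl (log2 -0.99). The 5 transcripts of Igf2 had log2 ratios for TGFB1 between -0.12 and -0.07 in Hmga2+/+ and between -0.62 and -0.52 in Hmga2-/-, where 1 of the 5 passed 1.5-fold. Of the 7 transcripts of Plagl1, 7 passed in Hmga2+/+ and 5 in Hmga2-/-. Those of Meg3 had log2 ratios between -1.58 and -0.88 in Hmga2+/+, and those of Grb10 between -0.41 and -0.05.

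In the Dlk1-Dio3 domain on chromosome 12 the other genes were examined beside both members. The reported transcript of Dlk1 lies at chr12:109452823-109463336 and that of Meg3 at chr12:109540996-109571729, both on the plus strand of mm10. Rian and Mirg are noncoding RNAs expressed from the maternal chromosome like Meg3. Rian had 7.26, 4.34, 3.37 and 2.33 RPKM in Hmga2+/+ Ctrl, Hmga2+/+ TGFB1, Hmga2-/- Ctrl and Hmga2-/- TGFB1, and Mirg 0.582, 0.301, 0.216 and 0.131 RPKM. Both were highest in Hmga2+/+ Ctrl and lowest in Hmga2-/- TGFB1, in the order of libraries seen for Meg3. Rtl1, a retrotransposon-derived gene of the paternal chromosome, had 49, 7, 18 and 4 reads. Dio3, which encodes the deiodinase that inactivates thyroid hormone, is the gene of this domain that went another way between genotypes. It had 0.372 RPKM (39 reads) in Hmga2+/+ Ctrl, 0 reads in Hmga2+/+ TGFB1, 1.62 RPKM (171 reads) in Hmga2-/- Ctrl and 0.038 RPKM (4 reads) in Hmga2-/- TGFB1. With TGFB1 it was at least 13.3-fold lower in Hmga2+/+ at the floor of 3 reads, and in Ctrl it was higher in Hmga2-/- than in Hmga2+/+ (log2 2.12), where the other 5 genes of the domain were lower.

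**Figure D5:**
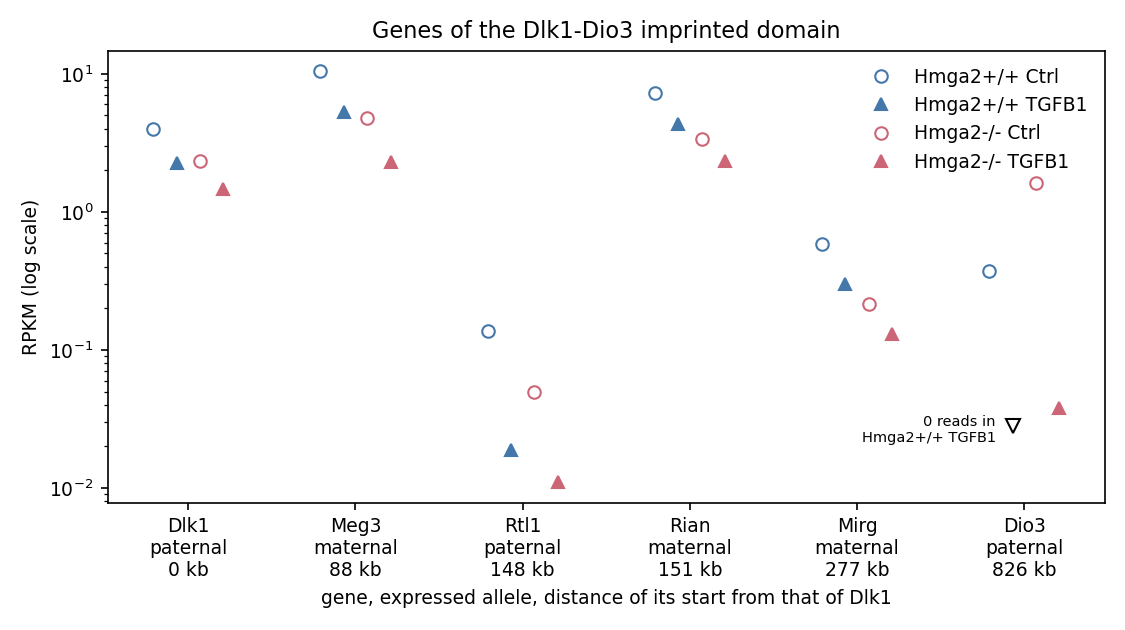
RPKM (y axis, log scale) of 6 genes of the Dlk1-Dio3 domain, placed by the distance of their start from that of Dlk1 (x axis, in kb), in the 4 libraries; blue is Hmga2+/+, red is Hmga2-/-, open circles are Ctrl and filled triangles TGFB1, and the black triangle marks the 3-read floor where 0 reads were found. In all genes but Dio3 the open red circle of Hmga2-/- Ctrl lies below the open blue circle of Hmga2+/+ Ctrl.

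On distal chromosome 7, H19 (chr7:142575530-142578146), Igf2 (chr7:142650768-142666816) and Cdkn1c (chr7:143458339-143461050) lie on the minus strand with starts up to 883 kb apart, in the H19-Igf2 and the Kcnq1ot1 domains. Of the other genes listed there, 4 had a mean of at least 1 RPKM. Kcnq1ot1, the long antisense RNA that silences Cdkn1c on the paternal chromosome, had 1.30, 1.71, 1.25 and 1.27 RPKM in Hmga2+/+ Ctrl, Hmga2+/+ TGFB1, Hmga2-/- Ctrl and Hmga2-/- TGFB1. Cd81, a tetraspanin gene, had 57.0, 52.7, 62.1 and 70.7 RPKM, Tssc4 7.22, 6.32, 6.92 and 7.92 RPKM, and Osbpl5 6.20, 6.48, 7.21 and 7.26 RPKM. Their log2 ratios for TGFB1 lay between -0.19 and 0.40, where that of Cdkn1c was -2.65 in Hmga2+/+. Slc22a18, a neighbour of Cdkn1c, had 9 and 5 reads in the Ctrl libraries and 0 in both TGFB1 libraries, and Phlda2 had at most 2 reads in any library. Near Ndn on central chromosome 7, Peg12 was higher with TGFB1, where Ndn was lower: it had 0.911, 1.28, 0.897 and 1.60 RPKM, log2 0.49 in Hmga2+/+ and 0.83 in Hmga2-/-. Snrpn of the same domain had 0.606, 0.348, 0.593 and 0.419 RPKM, with log2 ratios for TGFB1 of -0.80 and -0.50, and Mkrn3, with at most 28 reads in any library, had log2 ratios of 0.02 and 0.06.

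5 miRNA genes lie inside the members, and the members' RNA can be their precursor. Mir675 (chr7:142577064-142577147) overlaps an exon of H19, Mir1906-1 and Mir770 overlap exons of Meg3, and Mir335 and Mir483 lie in introns of Mest and Igf2. The mature sequences are given with the seed, bases 2 to 8, in capitals, since the seed sets which targets a miRNA can bind; the 9 seeds are all different. Sequences are from RefSeq on GRCm38.p6.

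miR-675-5p: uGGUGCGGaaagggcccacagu
miR-675-3p: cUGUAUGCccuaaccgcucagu
miR-1906: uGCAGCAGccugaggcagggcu
miR-770-5p: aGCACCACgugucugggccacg
miR-770-3p: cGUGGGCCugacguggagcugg
miR-335-5p: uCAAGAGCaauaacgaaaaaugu
miR-335-3p: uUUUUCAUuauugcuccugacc
miR-483-5p: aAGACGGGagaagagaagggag
miR-483-3p: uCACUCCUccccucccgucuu

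Reads over these hairpins are fragments of total RNA and do not measure the mature miRNA. The Mir675 hairpin had 115, 118, 132 and 120 RPKM in Hmga2+/+ Ctrl, Hmga2+/+ TGFB1, Hmga2-/- Ctrl and Hmga2-/- TGFB1, the highest 1.15-fold above the lowest, beside 1.10-fold for H19. The Mir1906-1 hairpin had 29.5, 14.1, 14.1 and 6.22 RPKM from 131, 64, 63 and 28 reads, with log2 ratios of -1.06 and -1.18 for TGFB1 in Hmga2+/+ and Hmga2-/-, close to those of Meg3. As this hairpin overlaps exons of Meg3, a read can count for both. The Mir335 hairpin in the intron of Mest had 20, 3, 32 and 11 reads, and its log2 ratio for TGFB1 was -2.77 (interval -5.16 to -1.01) in Hmga2+/+ and -1.55 (interval -2.69 to -0.52) in Hmga2-/-. Like Mest, this intronic hairpin had its higher counts in the Ctrl libraries. Mir770 had at most 3 reads and Mir483 at most 2 in any library.

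Promoters are shown for the members that were at least 1.5-fold lower with TGFB1 in both genotypes and have a RefSeq start site at which transcripts of the table begin. These were Dlk1, Meg3, Mest and Peg3, each with the RefSeq start at which the largest number of its transcripts began, namely 1 of 5 for Dlk1, 3 of 8 for Meg3, 2 of 3 for Mest and 2 of 2 for Peg3. The other 4 transcripts of Dlk1 thus begin at a start that is not shown. The promoter table holds 15 windows for 8 of the 10 members and none for H19 and Cdkn1c. Each window covers 250 bases before to 50 bases after the start on GRCm38.p6, 5′ to 3′ on the strand of the gene. Capitals mark matches, on either strand, to CAGAC, the SMAD box that SMAD proteins of the TGFB pathway bind, and to TGCCGC, the motif of ZFP57, which keeps methylation at imprinted regions.

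Dlk1, chr12:109452573-109452872, plus strand: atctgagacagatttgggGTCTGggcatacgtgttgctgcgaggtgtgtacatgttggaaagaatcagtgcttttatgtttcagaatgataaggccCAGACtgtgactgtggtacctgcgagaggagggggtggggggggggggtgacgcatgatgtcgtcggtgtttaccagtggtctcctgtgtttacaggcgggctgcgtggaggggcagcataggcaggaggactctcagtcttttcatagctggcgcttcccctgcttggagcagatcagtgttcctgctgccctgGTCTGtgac
Meg3, chr12:109540746-109541045, plus strand: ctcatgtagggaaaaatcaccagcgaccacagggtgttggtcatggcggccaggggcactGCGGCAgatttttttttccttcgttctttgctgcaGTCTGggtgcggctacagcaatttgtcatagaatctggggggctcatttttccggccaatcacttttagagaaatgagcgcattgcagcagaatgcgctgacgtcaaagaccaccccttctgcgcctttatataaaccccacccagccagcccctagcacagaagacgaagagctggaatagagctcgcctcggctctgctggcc
Mest, chr6:30737800-30738099, plus strand: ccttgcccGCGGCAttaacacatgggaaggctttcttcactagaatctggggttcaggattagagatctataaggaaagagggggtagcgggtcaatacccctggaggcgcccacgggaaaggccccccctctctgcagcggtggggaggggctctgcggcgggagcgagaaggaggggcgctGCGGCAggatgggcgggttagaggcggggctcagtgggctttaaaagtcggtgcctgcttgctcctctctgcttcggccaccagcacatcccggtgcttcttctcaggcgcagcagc
Peg3, chr7:6730370-6730669, minus strand: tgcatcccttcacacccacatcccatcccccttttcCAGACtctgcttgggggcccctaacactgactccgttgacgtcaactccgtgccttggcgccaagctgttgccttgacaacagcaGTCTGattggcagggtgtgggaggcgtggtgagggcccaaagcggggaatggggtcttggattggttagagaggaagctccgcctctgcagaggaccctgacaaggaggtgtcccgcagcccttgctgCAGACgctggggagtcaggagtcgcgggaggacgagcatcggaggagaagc

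The Dlk1 and Peg3 windows hold 3 matches each to CAGAC, the Meg3 window 1, and the Mest window 0. TGCCGC is matched 2 times in the Mest window and 1 time in that of Meg3. Over the 32851 promoter windows of the same length, 49.6% hold CAGAC and 11.6% hold TGCCGC, so that a match to CAGAC is common. Of the 15 windows of members, 8 hold CAGAC and 6 hold TGCCGC. These windows include starts of the same gene that overlap. The share of A and T bases was 44.3% in Dlk1, 46.3% in Meg3, 37.3% in Mest and 38.7% in Peg3, against a median of 47.3% over all windows. The window of Grb10 at the start of its longest transcript, by contrast, had 20.0% and 45 CpG sites, more CpG than in most windows (median 7), and its other window had 47.7% and 9 CpG sites. A match is a sequence of letters and says nothing of binding in these cells.

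Other genes known as imprinted were listed for comparison, and whether they are imprinted in these MEF was not tested. Of 44 listed, 43 had a transcript and 19 had a mean of at least 1 RPKM. With TGFB1, 3 of these 19 were at least 1.5-fold lower and 0 higher in Hmga2+/+, and 2 were lower and 2 higher in Hmga2-/-, beside the shares of all genes given above. The median log2 ratios of the 19 were -0.11 and 0.03. Between genotypes, 1 of the 19, Rian, was lower in Hmga2-/- under both treatments, beside 1.93% of all genes in Ctrl and 1.96% under TGFB1. Peg10, a retrotransposon-derived growth gene of the placenta, had 25.8, 14.2, 20.9 and 9.84 RPKM in Hmga2+/+ Ctrl, Hmga2+/+ TGFB1, Hmga2-/- Ctrl and Hmga2-/- TGFB1. Zrsr1, a retrogene whose reads could be shared with its parent copy, had 4.30, 2.18, 4.38 and 2.01 RPKM. Both were lower with TGFB1 in both genotypes. H13, a signal peptide peptidase gene, had 11.2, 14.8, 11.0 and 17.3 RPKM and was higher with TGFB1, reaching 1.5-fold in Hmga2-/- (log2 0.66). Igf2r, the receptor that takes Igf2 up for degradation, had 37.5, 47.1, 29.6 and 37.8 RPKM and was below 1.5-fold in every comparison. The ratio of Igf2 to Igf2r was 1.38 in Hmga2+/+ Ctrl, 1.05 in Hmga2+/+ TGFB1, 1.79 in Hmga2-/- Ctrl and 0.981 in Hmga2-/- TGFB1.

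In the insulin-like growth factor pathway around Igf2, all 8 listed genes had a mean of at least 1 RPKM. With TGFB1, 0 of the 8 passed 1.5-fold in Hmga2+/+, beside 15.9% lower and 11.6% higher among all genes. In Hmga2-/-, 2 of the 8, Igf2bp2 and Irs1, were lower and 0 higher, beside 14.2% lower and 13.4% higher among all genes. Igf1r, the receptor that signals for Igf2, had 11.1, 13.8, 13.3 and 14.2 RPKM in Hmga2+/+ Ctrl, Hmga2+/+ TGFB1, Hmga2-/- Ctrl and Hmga2-/- TGFB1. Igf2bp2 encodes a protein that binds Igf2 mRNA, and of the 8 genes it alone differed between genotypes by 1.5-fold. Among all genes, 1.93% were lower in Hmga2-/- and 2.23% higher in Ctrl, and 1.96% and 3.01% under TGFB1. Igf2bp2 had 24.9 and 22.7 RPKM in Hmga2+/+ Ctrl and TGFB1 but 0.722 and 0.354 RPKM in Hmga2-/- Ctrl and TGFB1. Its log2 ratio was -5.11 in Ctrl and -6.01 under TGFB1. Its relatives Igf2bp1 and Igf2bp3 had between 4.54 and 6.58 RPKM in all libraries. The level of Igf2 itself differed between genotypes by log2 0.03 in Ctrl and -0.41 under TGFB1. A link between Igf2 and Igf2bp2 was not tested.

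Relatives of the members that are not imprinted were listed for comparison, and 7 of the 10 had a mean of at least 1 RPKM. With TGFB1, 3 of the 7 were lower and 1 higher in each genotype, beside 15.9% lower and 11.6% higher among all genes in Hmga2+/+ and 14.2% and 13.4% in Hmga2-/-. Cdkn1a, which encodes p21, a relative of the Cdkn1c product, was higher with TGFB1 where Cdkn1c was lower: it had 6.28, 12.4, 8.63 and 20.7 RPKM in Hmga2+/+ Ctrl, Hmga2+/+ TGFB1, Hmga2-/- Ctrl and Hmga2-/- TGFB1. Cdkn1b, which encodes p27, the third inhibitor of this family, had 27.7, 15.4, 24.99 and 14.7 RPKM and was lower. Grb14, a relative of Grb10, had 6.19, 3.11, 15.0 and 4.12 RPKM, lower with TGFB1 in both genotypes, and in Ctrl it was 2.43-fold higher in Hmga2-/- than in Hmga2+/+ (log2 1.28). Maged2, of the same family as Ndn, had 12.97, 5.03, 10.8 and 5.61 RPKM and was lower with TGFB1 as well. Plag1, a relative of Plagl1, had 2.18, 1.93, 0.649 and 0.554 RPKM, and it was lower in Hmga2-/- under both treatments (log2 -1.75 and -1.80). The genes that keep imprints, Ctcf, Zfp57, Zfp445, Trim28, Dnmt1 and Uhrf1, had log2 ratios between -0.17 and 0.27 in the 4 comparisons. Of these 6, 0 passed 1.5-fold, beside the shares of all genes with TGFB1 given above. Between genotypes, 1.93% of all genes were lower and 2.23% higher in Ctrl, and 1.96% and 3.01% under TGFB1. There, 0 of 6 is near the share of all genes.

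For the 3 members with the widest range over the libraries, Cdkn1c, Meg3 and Dlk1, the genes with the most similar course over the 4 libraries were sought among the 10792 genes, by the distance between log2 RPKM profiles each centred on its mean. Nearest to Cdkn1c were Cpxm1 (distance 0.105), Id3 (0.210) and Rassf2 (0.235). Id3 encodes an inhibitor of basic helix-loop-helix factors, and its log2 ratios for TGFB1 were -2.55 in Hmga2+/+ and -2.74 in Hmga2-/-. Nearest to Meg3 were Mir1906-1 within it (0.097), Tenm4 (0.145) and Acsf2 (0.185). Nearest to Dlk1 were Itih2 (0.128), Agbl5 (0.128) and AC126937.2 (0.133). Itih2 had 10.8, 6.56, 6.47 and 3.78 RPKM. Over only 4 libraries such profiles describe these libraries and nothing more.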

How the data were processed

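RNA-seq was made by the authors from total RNA of 4 MEF libraries with a stranded, single-end protocol. Per the labels and the paper's methods, reads were trimmed with trimmomatic and mapped to mm10 with HISAT2 2.1.0, and the authors deposited RPKM per UCSC known gene transcript, computed with HOMER on the annotated strand, beside the other column used here, the counted length in bases as deposited. The file header names counting over exons and the paper's methods counting over genes. The paper's methods mention sequencing in duplicates from a single experiment, whereas the table used here has 1 column for each condition, and how the duplicates entered it is not given in the sources used here. 0 columns of per-sample values were left unused.

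Each of 63759 transcripts was named by the GENCODE M21 gene on the same strand that covers at least 50% of its span, which named 57708 (90.5%). The transcript with the longest gene body stands for its gene. Following the paper, 0 RPKM was set to 0.001 and 1.5-fold taken as a change. All 10 members were kept without a filter. Counts over all genes, and over the lists of other genes, use the genes with a mean of at least 1 RPKM over the 4 libraries, so members are read beside that background only as a description. The mapped reads of a library were taken as the depth that turns RPKM and length into whole reads, which worked for 100% of low values of transcripts under 600 bases (tolerance 0.1 read), and gave exact intervals of read ratios, for counting error only. The steps were tested on simulated data. Of the genes listed as a check of treatment, 1 is not reported here. Members, gene lists and rules were chosen with earlier results of these data known. Genes named were the 10 members, genes of lists counted whole, other imprinted genes past 1.5-fold, and the 3 nearest profiles of the 3 members with the widest range. Alternatives were pseudocounts of 1 and 0.1 RPKM, median-ratio scaling, a 2-fold threshold, the transcript with the highest mean RPKM, and the filter on low values. Python 3.11.15, numpy 2.4.6, pandas 2.3.3, scipy 1.17.1 and matplotlib 3.10.9 were used.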

Additional observations from a re-analysis of the deposited data

Results flagged for a closer look

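For several genes a difference had opposite signs in the other genotype or under the other treatment, and with 1 library per condition these contrasts were not tested. The TGFB1 response of H19 was log2 0.13 in Hmga2+/+ and -0.04 in Hmga2-/-, a difference of -0.17, and the same 4 values make its genotype difference 0.09 in Ctrl and -0.08 under TGFB1. The genotype difference of Igf2 was 0.03 in Ctrl and -0.41 under TGFB1, a difference of -0.44. Grb10 had 0.12 and -0.03, a difference of -0.15. Ndn had -0.21 and 0.36, a difference of 0.57, from at most 231 reads per library. Among other imprinted genes past 1.5-fold in any comparison, the genotype difference of Peg12 was -0.02 in Ctrl and 0.32 under TGFB1 (difference 0.34). That of Zrsr1 was 0.03 and -0.11 (difference -0.14), and that of H13 -0.03 and 0.23 (difference 0.26). Counting intervals included 0 under both treatments for Ndn and Zrsr1, and in Ctrl for Igf2, Peg12 and H13. Cd81 (-0.11 and 0.19), Gnas (-0.19 and 0.12) and Tssc4 (-0.19 and 0.19) stayed below 1.5-fold. Their TGFB1 responses also had opposite signs in Hmga2+/+ and Hmga2-/-, with intervals that left out 0.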

How the results depend on the processing

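No paired analysis was possible because each condition has 1 library, so that the conditions share only 1 replicate number. Of 200 recomputed log2 values of the 10 members (4 comparisons and the difference of responses, under 4 alternatives), 0 of those past 1.5-fold changed sign, and 3 smaller ones did (genotype under TGFB1 in Peg3 and Mest, and the difference of responses in Meg3). A pseudocount added to both values cannot change the sign of a ratio. Median-ratio scaling moved log2 values by at most 0.055, too little to reverse one past 1.5-fold. For such values only the choice of transcript could have changed the sign. Under a pseudocount of 1 RPKM, members past 1.5-fold numbered 3 for TGFB1 in Hmga2-/- and 1 for genotype under TGFB1, since Dlk1 and Peg3, and for genotype Dlk1 and Cdkn1c, no longer passed. Plagl1 passed in Hmga2-/- under median-ratio scaling (log2 -0.60) and with the highest mean RPKM transcript (log2 -0.76). At a 2-fold threshold the members numbered 3 and 3 for TGFB1 in Hmga2+/+ and Hmga2-/-, and 1 and 1 for genotype in Ctrl and under TGFB1. All of these were lower. Other imprinted genes then numbered 0 and 2 for TGFB1 and 0 for genotype under TGFB1. Of all 10792 genes, 1168 and 1229 passed for TGFB1 in Hmga2+/+ and Hmga2-/-, of which 662 and 638 were lower. For genotype in Ctrl and under TGFB1, 142 and 153 passed, of which 81 and 65 were lower. Without a filter on low values, other imprinted genes numbered 20, 19, 12 and 10 and all genes 8022, 8099, 4484 and 4581 in the same order of comparisons, with genes near 0 reads included. With the highest mean RPKM transcript, other imprinted genes were 2 for genotype under TGFB1, and with a pseudocount of 1 RPKM all genes were 236 and 286 for genotype in Ctrl and under TGFB1. No other total moved by over 1.5-fold, but of the 2 other imprinted genes higher with TGFB1 in Hmga2-/- the number fell to 1 under a pseudocount of 1 RPKM and with the highest mean RPKM transcript. Ndn and Peg3, with 489 reads or fewer, are the members most limited by depth.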
